A study of Mus musculus with 16 samples.

Results

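The 10 lung identity transcription factors described here are Nkx2-1, Foxa1, Foxa2, Gata6, Foxp1, Foxp2, Foxp4, Tbx2, Tbx4 and Tbx5. They were chosen by symbol as known lung epithelial and mesenchymal regulators, by no cutoff on their values. Earlier results of these data were known when they and the gene lists below were chosen. The factors are 10 of the 57180 genes counted. All 10 passed the filter on low counts. Their RNA was measured by poly(A) RNA sequencing of lungs from mouse fetuses at E14.5 (E stands for embryonic day), which the design text gives as male. The 16 libraries form 4 groups of 4. The strains were C57BL/6J (B6) and A/J, both inbred and with no engineered allele named. Dams of each strain received by mouth either BMS493, an inverse agonist that acts on all retinoic acid receptors, at 3.75 µg per g per day, or corn oil as the control. Dosing ran from E9.5 to E14.5, so the lungs were taken at the end of the exposure. The comparison asks whether blocking retinoic acid signaling, or the strain, altered the RNA of these regulators. Neither shared dams nor pooling of lungs is stated in the labels, so the p-values measure the spread between these libraries, which may be partly technical or shared within a litter.

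Lung epithelium arises from foregut endoderm that switches on Nkx2-1, a homeodomain factor, and branches into a mesenchyme that expresses the T-box factors Tbx2, Tbx4 and Tbx5. Foxa1 and Foxa2 are forkhead factors that open chromatin in endoderm and act with Nkx2-1 and the zinc finger factor Gata6 on surfactant and secretory genes. Foxp1, Foxp2 and Foxp4 are forkhead repressors of the developing airway and distal epithelium, and Foxp1 is also found in mesenchyme. Tbx4 and Tbx5 support Fgf10 and Wnt2 signaling in the mesenchyme, and Tbx2 holds mesenchymal progenitors in a dividing state. Retinoic acid acts in the foregut mesoderm when the lung buds form.

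The bases upstream of the start of the 3 factors that later differed between strains are shown to place those genes. They come from RefSeq on build GRCm38.p6, that is from the B6 reference, and say nothing of the A/J allele. Each is written 5′ to 3′ on the gene's strand, which is the minus strand in all 3 cases, with annotated exon bases left out. Capitals mark the forkhead core TGTTT on either strand (as AAACA on the other), the sequence recognised by the Foxa and Foxp families.
Nkx2-1, chr12:56536909-56537158: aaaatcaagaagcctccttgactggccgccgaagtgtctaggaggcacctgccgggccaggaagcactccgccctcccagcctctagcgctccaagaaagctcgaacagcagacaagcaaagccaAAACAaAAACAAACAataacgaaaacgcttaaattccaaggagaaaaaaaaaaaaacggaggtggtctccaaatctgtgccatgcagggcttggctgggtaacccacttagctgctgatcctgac
Foxa2, chr2:148046970-148047219: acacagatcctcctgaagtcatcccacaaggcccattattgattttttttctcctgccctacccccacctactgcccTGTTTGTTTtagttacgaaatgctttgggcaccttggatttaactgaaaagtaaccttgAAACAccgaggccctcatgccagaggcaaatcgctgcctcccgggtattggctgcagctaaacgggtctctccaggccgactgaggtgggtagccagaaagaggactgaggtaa
Foxp4, chr17:47924646-47924882: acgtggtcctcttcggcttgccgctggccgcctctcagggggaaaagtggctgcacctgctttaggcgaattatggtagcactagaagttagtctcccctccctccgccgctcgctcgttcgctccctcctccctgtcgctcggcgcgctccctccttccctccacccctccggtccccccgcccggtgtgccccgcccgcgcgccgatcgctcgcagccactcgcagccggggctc
The Nkx2-1 window held 3 matches, which begin at -125, -119 and -115 from the start, and the last pair shares a base. The Foxa2 window, taken at the start farthest upstream of its annotated starts, held 3 matches, at -173, -169 and -114, of which the first pair shares a base. No match lay in the Foxp4 window. Of 32851 upstream windows of 250 bases in the same table, 46.4% held this core, so a match is common and describes only the letters. Exon bases were not left out of those windows, unlike the windows printed. None of the 3 windows printed held, on either strand, a T-box half-site (AGGTGTG, in 5.11% of all windows), the NKX2-1 motif CAAGTG (11.6%), the GATA motif AGATAA (9.99%) or the retinoic acid receptor half-site AGGTCA (14.02%). The absence depends on the start chosen, since the window of another annotated Foxa2 start held the GATA motif at -183. Windows were in the table for 6 of the 10 factors, and those of Foxa1, Foxp1 and Tbx4 are not printed.

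Depth was 15207539 to 24146224 counts assigned to genes per library, which was 71.7% to 76.9% of all fragments. Each factor had between 781 and 11487 counts in a library. All 13 epithelial and 13 mesenchymal markers were detected in every library, and markers of neighbouring organs were low. Summed CPM (counts of a gene per megacount of its library, with TMM scaling) ran over the libraries from 0.592 to 1.58 for 5 thyroid markers, from 1.35 to 12.99 for 7 liver markers and from 1.36 to 3.88 for 7 foregut markers, and Cdx2 was at 0 in all libraries. The 7 heart markers summed to 38.9 to 86.8 CPM, with Nppa at 0. Tbx5 is also a heart factor, Nkx2-1 a thyroid factor and Foxa2 a liver and gut factor. Replicate 2 of the B6 BMS493 group stood apart by high epithelial genes, and replicate 3 of that group by summed mesenchymal markers of 17810 CPM against at most 12190 CPM in every other library. Replicate 4 of the A/J controls had the lowest epithelial marker level of all libraries.

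Per length, Tbx2 had the highest level of the 10 factors, at 135 ± 10.5 CPM per kilobase of exon (SD over all 16 libraries). Nkx2-1 at 73.7 ± 12.5 and Tbx4 at 71.8 ± 4.83 CPM per kilobase followed, and did not differ beyond their spread. Foxp4 at 42.5 ± 4.08 and Tbx5 at 36.7 ± 2.86 CPM per kilobase came next. Foxa2 at 24.3 ± 2.90 and Foxa1 at 23.1 ± 2.52 CPM per kilobase again lay within their spread of each other. Gata6 was at 11.8 ± 1.06, Foxp2 at 9.28 ± 1.03 and Foxp1 at 7.06 ± 0.538 CPM per kilobase. Tbx2, Nkx2-1 and Tbx4 held the upper 3 places. With the longest transcript as the length, Tbx4 stood above Nkx2-1 and Foxp2 above Gata6, and among these levels per length the ratio of the highest to the lowest was 10.01 in place of 19.2. In this bulk tissue, fewer cells of a type and less RNA per cell cannot be told apart.

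BMS493 against control gave no call among the 10 factors in either strain, where a call is an adjusted p under 0.05 in edgeR's quasi-likelihood test with Benjamini-Hochberg adjustment over all 17276 genes tested. Nkx2-1, Foxa1, Foxa2, Foxp2 and Tbx2 had positive estimates in both strains and Foxp4, Gata6, Foxp1 and Tbx4 negative ones, none past the threshold. All 20 estimates lay between -0.19 and 0.21 on the log2 scale. In B6, 0.423% of all genes were called, and in A/J 0.486%, so few calls would stand among any 10 genes. An unadjusted p under 0.05 was found for 1 factor in each strain, where 9.11% and 6.23% of all genes had one. DESeq2 also called 0 factors in both strains. The median absolute log2 fold change of the factors was 0.086 in B6 and 0.080 in A/J, beside 0.10 and 0.085 over all genes.

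**Figure D1:**
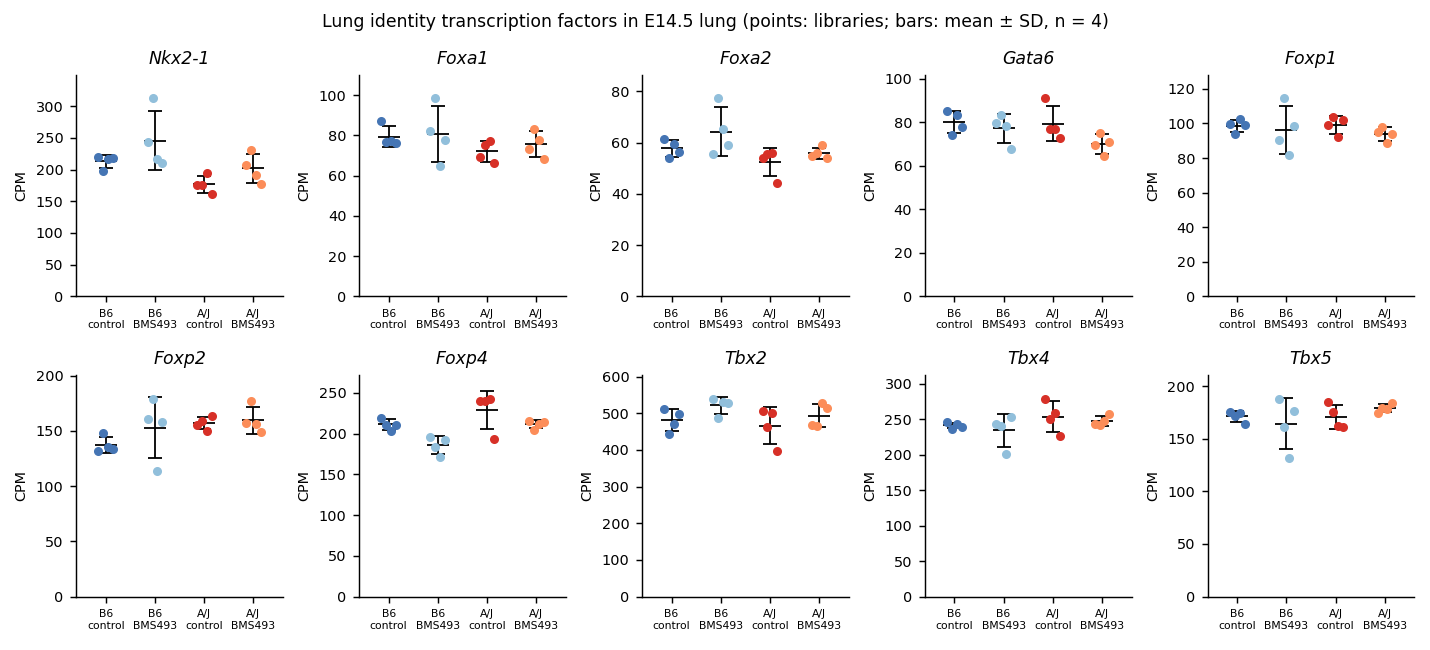
CPM of each factor (vertical axes, each starting at 0) in the 4 groups, with points for libraries and bars for the mean ± SD (n = 4). Nkx2-1 is lower in A/J than in B6 controls without overlap, and replicate 2 of the B6 BMS493 group is the highest Nkx2-1 point at 312 CPM.

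Of the epithelial factors, Nkx2-1 (ENSMUSG00000001496, chromosome 12) had 219, 198, 217 and 218 CPM in B6 controls and 244, 312, 216 and 211 CPM with BMS493. The groups overlapped, and the highest library lay far above the rest. The fitted log2 fold change was 0.21 (SE 0.10, adjusted p = 0.556 by edgeR), with a 95% interval from -0.0065 to 0.42. In A/J it had 175, 176, 195 and 162 CPM in controls and 207, 231, 191 and 178 CPM with BMS493. These groups also overlapped, and the estimate was 0.19 (adjusted p = 0.895), with an interval from -0.025 to 0.40. Over both strains the estimate was 0.20 (SE 0.072, adjusted p = 0.272 by edgeR), and 1.37% of all genes were called in that comparison, with no factor among them by edgeR or DESeq2. Nkx2-1, Foxp4 and Gata6 had an unadjusted p under 0.05 over both strains, as did 10.8% of all genes. Leaving out replicate 2 of the B6 BMS493 group gave 0.071 in B6.

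Foxa1 (ENSMUSG00000035451, chromosome 12) had 87.1, 76.9, 77.1 and 76.3 CPM in B6 controls and 82.0, 98.5, 64.7 and 77.7 CPM with BMS493. The treated libraries lay on both sides of the controls, and the estimate was 0.028 with an interval from -0.16 to 0.22. In A/J the means were 72.0 ± 5.10 CPM in controls and 75.6 ± 6.49 CPM with BMS493 (SD, n = 4 each). Foxa2 (ENSMUSG00000037025, chromosome 2), its partner in endoderm, had 61.3, 54.1, 59.4 and 56.3 CPM in B6 controls and 55.5, 77.3, 65.2 and 59.0 CPM with BMS493. The highest treated library was again replicate 2, and the estimate was 0.16 (adjusted p = 0.616 by edgeR), or 0.053 without that library. In A/J, Foxa2 was at 52.5 ± 5.50 CPM in controls and 55.9 ± 2.16 CPM with BMS493, with an estimate of 0.090 and an interval from -0.090 to 0.27.

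Foxp2 (ENSMUSG00000029563, chromosome 6) had 132, 148, 135 and 134 CPM in B6 controls and 161, 179, 113 and 158 CPM with BMS493. Treated replicate 3 lay below every control and the other 3 above every control. The estimate was 0.16 (adjusted p = 0.648 by edgeR), and 0.27 without that replicate (adjusted p = 0.0401). A/J controls were at 157 ± 5.65 CPM and A/J lungs with BMS493 at 160 ± 12.1 CPM (SD, n = 4 each), an estimate of 0.025.

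Foxp4 (ENSMUSG00000023991, chromosome 17) was the factor nearest to a call in B6. It had 219, 211, 204 and 211 CPM in controls and 196, 184, 171 and 192 CPM with BMS493. Every treated library lay below every control, as it did in the same direction for 2.63% of all genes. The estimate was -0.19 (SE 0.065, unadjusted p = 0.00818, adjusted p = 0.315 by edgeR). In A/J it had 240, 240, 243 and 194 CPM in controls and 216, 204, 212 and 214 CPM with BMS493, an estimate of -0.12 (adjusted p = 0.895). Here only control replicate 4 lay below the treated libraries. Over both strains the estimate was -0.15 (adjusted p = 0.121 by edgeR), and without that replicate -0.19 (adjusted p = 0.00604).

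Gata6 and Foxp1 act in both epithelium and mesenchyme. Gata6 (ENSMUSG00000005836, chromosome 18) had 85.0, 74.3, 83.2 and 78.0 CPM in B6 controls and 79.7, 83.5, 78.1 and 67.9 CPM with BMS493, which overlap. In A/J it had 91.1, 76.9, 76.7 and 73.0 CPM in controls and 69.7, 75.3, 64.4 and 71.2 CPM with BMS493. Of these treated libraries 3 lay below every control, and the estimate was -0.18 (SE 0.075, unadjusted p = 0.0248, adjusted p = 0.647 by edgeR). A gene on the opposite strand covers 1.43% of the Gata6 exon bases, and counting by strand adds 3.89% to 7.95% to its counts. Foxp1 (ENSMUSG00000030067, chromosome 6) was at 98.7 ± 3.58 CPM in B6 controls and 96.2 ± 14.01 CPM with BMS493 (SD, n = 4 each), and at 99.2 ± 5.14 and 94.0 ± 3.96 CPM in A/J. Its estimates of -0.033 and -0.077 had intervals from -0.19 to 0.12 and from -0.23 to 0.078.

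Of the mesenchymal factors, Tbx2 (ENSMUSG00000000093, chromosome 11) had 511, 444, 471 and 498 CPM in B6 controls and 540, 486, 532 and 528 CPM with BMS493. Of the treated libraries 3 lay above every control, and the estimate was 0.12 (adjusted p = 0.658 by edgeR). In A/J its means were 466 ± 50.6 and 494 ± 31.6 CPM (SD, n = 4 each), an estimate of 0.083. Tbx4 (ENSMUSG00000000094, chromosome 11) was at 241 ± 3.95 CPM in B6 controls and 234 ± 23.2 CPM with BMS493, with the lowest treated library, replicate 3, at 200 CPM. The A/J means were 254 ± 21.6 and 248 ± 7.30 CPM. Its estimates of -0.041 and -0.035 had intervals from -0.18 to 0.096 and from -0.17 to 0.10. Tbx5 (ENSMUSG00000018263, chromosome 5), which acts with Tbx4, had 176, 172, 174 and 164 CPM in B6 controls and 188, 162, 132 and 176 CPM with BMS493. Its A/J means were 171 ± 11.2 and 179 ± 3.69 CPM. The Tbx5 estimates were -0.057 in B6 and 0.066 in A/J, neither past the threshold.

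**Figure D2:**
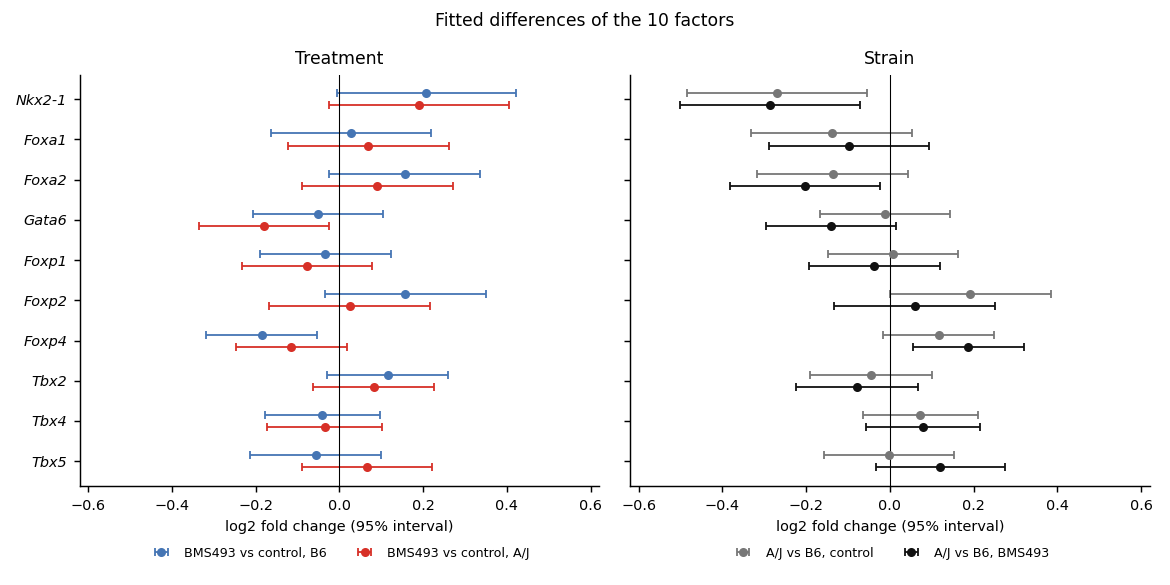
Fitted log2 fold change of each factor with its 95% interval (horizontal axes), for BMS493 against control in each strain (left) and A/J against B6 under each treatment (right). All points lie between -0.29 and 0.21, and the A/J against B6 interval of Nkx2-1 lies below 0 in controls and with BMS493.

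The response to BMS493 did not differ detectably between strains for any of the 10 factors. The interaction estimates lay between -0.13 (Foxp2) and 0.12 (Tbx5) on the log2 scale, with adjusted p of at least 0.999. An unadjusted p under 0.05 was found for 0 factors and for 3.68% of all genes, and 0.00579% of all genes were called. DESeq2 called 0 factors as well. The widest interval, of Nkx2-1, ran from -0.32 to 0.29, so a difference of that size between the strains' responses was not detectable with these libraries.

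Strain was the comparison in which factors were called. Over both treatments A/J lungs had lower Nkx2-1, at -0.28 on the log2 scale (SE 0.072, adjusted p = 0.00597 by edgeR), and lower Foxa2, at -0.17 (SE 0.062, adjusted p = 0.0372), than B6 lungs, and higher Foxp4, at 0.15 (SE 0.046, adjusted p = 0.0123). In that comparison 31.7% of all genes were called, so 3 of 10 is near the background. By direction, 17.5% of all genes were called lower and 14.2% higher in A/J. The other 7 factors did not pass, and the median absolute log2 fold change was 0.098 for the factors and 0.15 for all genes. In controls alone 0 factors were called by edgeR and 0 by DESeq2, where 16.9% of all genes were called, and 1 factor had an unadjusted p under 0.05, as did 29.0% of all genes. With BMS493 Foxp4 was the 1 factor called by edgeR, where 20.0% of all genes were called, and DESeq2 called 2, with Nkx2-1 added (adjusted p = 0.0350).

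Nkx2-1 averaged 213 ± 10.2 CPM in B6 and 177 ± 13.6 CPM in A/J controls (SD, n = 4 each). Its highest A/J control library, at 195 CPM, lay below the lowest B6 control, at 198 CPM, and 13.6% of all genes showed such a gap downward. The control estimate was -0.27 (SE 0.10, adjusted p = 0.0816 by edgeR). It passed at about the same estimate without B6 BMS493 replicate 2 (adjusted p = 0.00979) and with only the 8 control libraries (adjusted p = 0.00145). With BMS493 the means were 246 ± 46.7 and 202 ± 23.0 CPM, which overlapped, and the estimate was -0.29 (adjusted p = 0.0553). That value rested partly on B6 BMS493 replicate 2, without which it was -0.15 (adjusted p = 0.227 by edgeR). It passed without B6 BMS493 replicate 3 or 4 or A/J BMS493 replicate 2 (adjusted p = 0.0483, 0.0178 and 0.0202). The call over both treatments held in each of 16 fits that left out 1 library. Within library numbers 1 to 8 the estimate was -0.30 (adjusted p = 0.0303 by edgeR) and within numbers 9 to 16 -0.25 (adjusted p = 0.0302). The library numbers come from the labels, which do not call them batches.

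Foxp4 was at 211 ± 6.43 CPM in B6 and 229 ± 23.5 CPM in A/J controls (SD, n = 4 each), an estimate of 0.12 (adjusted p = 0.241 by edgeR). With BMS493 it was at 186 ± 11.3 and 212 ± 5.25 CPM, with every A/J library above every B6 library, as for 8.74% of all genes. That estimate was 0.19 (SE 0.065, adjusted p = 0.0418). The call was lost, at estimates of 0.14 to 0.19, in 8 of the 16 fits that left out a library, with adjusted p of 0.118 without B6 BMS493 replicate 3 and 0.0849 without replicate 2. The others were A/J BMS493 replicates 1, 3 and 4 (0.0919, 0.0854 and 0.0868) and B6 control replicates 2, 3 and 4 (0.0537, 0.0520 and 0.0546). Over both treatments the Foxp4 call held in all 16 such fits. Within library numbers 1 to 8 it was 0.14 (adjusted p = 0.0431 by edgeR) and within 9 to 16 it was 0.15 (adjusted p = 0.212). Without B6 BMS493 replicates 2 and 3 together it was 0.12 (adjusted p = 0.05003). Without A/J control replicate 4 the control estimate rose to 0.19 (adjusted p = 0.0188).

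Foxa2 was at 57.8 ± 3.22 CPM in B6 and 52.5 ± 5.50 CPM in A/J controls, and at 64.3 ± 9.58 and 55.9 ± 2.16 CPM with BMS493 (SD, n = 4 each). Libraries overlapped in both cases. The call over both treatments rested on single libraries. Without B6 BMS493 replicate 2 the estimate fell to -0.12 (adjusted p = 0.115 by edgeR), and without that replicate and replicate 3 to -0.087 (adjusted p = 0.250). It was also lost without B6 control replicates 1 and 3 (adjusted p = 0.0874 and 0.0658) and without A/J control replicates 1 and 4 (0.0509 and 0.0930). Leaving out A/J BMS493 replicates 1, 2 and 4 gave adjusted p of 0.0723, 0.0582 and 0.0748 by edgeR. Within library numbers 1 to 8 and 9 to 16 the estimates were -0.18 and -0.17 (adjusted p = 0.258 and 0.220).

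Of the factors that were not called, Foxp2 had A/J control libraries from 150 to 163 CPM, all above the B6 controls, which ran from 132 to 148 CPM. A gap upward was found for 10.7% of all genes, and the estimate was 0.19 (adjusted p = 0.175 by edgeR). Foxa1 was -0.14 in controls and -0.098 with BMS493, with intervals that include 0. Over both treatments Foxa1 passed without B6 BMS493 replicate 3 (adjusted p = 0.0204 by edgeR). The mesenchymal factors Tbx2, Tbx4 and Tbx5 had estimates from -0.079 to 0.12 in the strain comparisons, and Gata6 and Foxp1 from -0.14 to 0.0071, with none called.

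Markers of several cell types moved with strain in the same libraries. All 13 epithelial markers, among them Epcam and Cdh1, had negative A/J against B6 estimates in controls, and 4 of 13 were called lower there, beside 16.9% of all genes called in either direction. With BMS493 8 of 13 were called lower, and over both treatments 9 of 13, beside 20.0% and 31.7% of all genes. Of 8 endothelial markers 6 were called lower in A/J controls, 8 with BMS493 and 8 over both treatments, where their median log2 fold change was -0.42 and that of the epithelial markers -0.36. Of 13 mesenchymal markers 5 were called lower in controls, and over both treatments 6 lower and 2 higher. Of 6 neural markers 5 were called higher in A/J over both treatments, with a median of 0.77. The mean log2 CPM of the epithelial markers was 6.14 ± 0.023 in B6 and 5.84 ± 0.15 in A/J controls, and 6.32 ± 0.24 and 5.87 ± 0.056 with BMS493 (SD, n = 4 each). Both strain differences, of -0.29 and -0.45, had an exact permutation p of 0.0286 (two-sided), the smallest that 4 against 4 libraries allow. None of these 13 was called with BMS493 in either strain, beside 0.423% and 0.486% of all genes. Of the 13, 12 had estimates above 0 in B6, with a median log2 fold change of 0.25, and 8 in A/J, with a median of 0.041. Their mean log2 CPM differed by 0.19 with BMS493 in B6 (exact permutation p = 0.2, two-sided, n = 4 each). Replicates 2 and 3 stood at 6.65 and 6.36, and replicates 1 and 4 at 6.10 and 6.17, beside controls from 6.11 to 6.16. The positive Nkx2-1 and Foxa2 estimates with BMS493 in B6 stood beside those values, whose part in them was not tested. Of 5 mesothelial markers 0 were called with BMS493 in either strain, with medians of -0.060 in B6 and -0.29 in A/J. Of 6 neural markers 0 were called too, with medians of -0.39 and -0.24. Over both strains 1 of each list was called lower, beside 1.37% of all genes.

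Set against these markers, Nkx2-1 did not separate the strains in controls. Nkx2-1 log2 CPM minus the marker mean was 1.60 ± 0.087 in B6 and 1.62 ± 0.068 in A/J controls, a difference of 0.023 (exact permutation p = 0.714, two-sided, n = 4 each). With BMS493 the difference was 0.18 (exact permutation p = 0.2). Foxa2 relative to the markers was higher in A/J, by 0.15 in controls and 0.26 with BMS493, the reverse of its level in CPM. Foxp4 relative to the markers was higher in A/J by 0.40 in controls and by 0.64 with BMS493, and Foxp2 by 0.49 and 0.53. With BMS493 Foxp4 relative to the markers was lower, by -0.38 in B6 and -0.14 in A/J. Each of these Foxa2, Foxp4 and Foxp2 differences had an exact permutation p of 0.0286. The marker mean itself differed between strains by -0.29 in controls and -0.45 with BMS493, so a gene with equal CPM in both strains would stand higher in A/J relative to the markers by that much, and the strain values carry the markers' own difference. The treatment values do so too, since the marker mean differed with BMS493 by 0.19 in B6 and 0.031 in A/J. The Foxp4 estimates from counts were -0.19 and -0.12. Gata6 relative to the same markers was higher in A/J controls, by 0.28, and lower with BMS493 in A/J, by -0.21, and Foxp1 was higher in A/J with BMS493, by 0.43, each at the same exact p. The adjusted value over the 48 such tests was 0.0762, so none passed. The summary of the markers matters here. With their median in place of their mean, Nkx2-1 was higher in A/J relative to the markers by 0.19 in controls and 0.39 with BMS493 (exact permutation p = 0.0857 and 0.0571), and the smallest adjusted value was 0.0596. The Foxp4 differences with BMS493 became -0.43 and -0.15 (exact permutation p = 0.0857 each), and the strain differences of Foxa2, Foxp2 and Foxp4 kept their sign. The part of cell makeup in these differences was not tested.

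**Figure D3:**
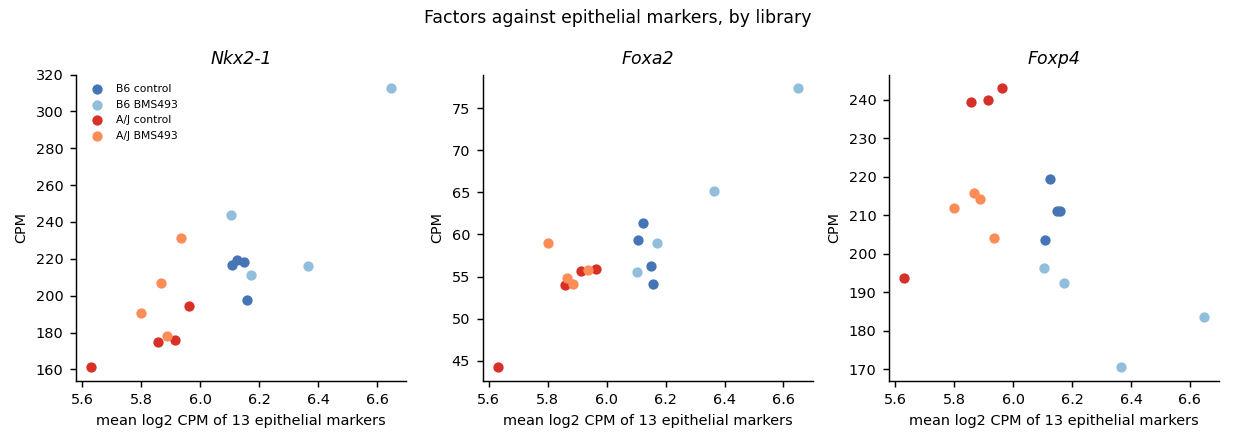
CPM of Nkx2-1, Foxa2 and Foxp4 (vertical axes, not starting at 0) against the mean log2 CPM of 13 epithelial markers (horizontal axes), with a point per library coloured by group. The A/J libraries have marker means up to 5.96 and the B6 libraries of at least 6.10. Of the A/J control libraries 3 have the highest Foxp4, at 240 to 243 CPM, and replicate 4 has 194 CPM.

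Against the mean of 13 mesenchymal markers, which include collagens and Pdgfra, the T-box factors were higher in A/J controls, by 0.26 for Tbx2, 0.38 for Tbx4 and 0.31 for Tbx5 (exact permutation p = 0.0286, adjusted 0.0762). The marker mean itself was lower in A/J controls, at 8.01 ± 0.12 against 8.32 ± 0.022 in B6 (SD, n = 4 each). With BMS493 the T-box differences between strains were 0.064, 0.23 and 0.28, with an exact permutation p of at least 0.0857. With the marker median in place of the mean they were 0.48, 0.65 and 0.70 (exact permutation p = 0.0571, 0.0286 and 0.0286, adjusted 0.0980, 0.0596 and 0.0596). In B6 Tbx2 relative to these markers was higher with BMS493 by 0.25 (exact permutation p = 0.0286, adjusted 0.0762), but with the marker median the value turned to -0.029 (exact permutation p = 0.8286). With that median the control differences were larger, at 0.63 for Tbx2, 0.75 for Tbx4 and 0.68 for Tbx5. Tbx4 relative to the median was lower with BMS493, by -0.19 in B6 and -0.30 in A/J (exact permutation p = 0.0286, adjusted 0.0596), where the mean gave 0.090 and -0.064. The CPM of these T-box factors did not differ by strain past the threshold, so the relative values carry the markers' own difference.

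Within groups the factors differed in how much they varied. The SD of log2 CPM within groups was 0.17 for Nkx2-1, above that of 91.6% of the 5965 genes with a mean of at least 40 CPM. Foxp2 at 0.16 (89.8%) and Foxa1 at 0.16 (88.7%) were close to it. Foxp4 at 0.095 and Tbx4 at 0.10 lay near the median of 0.098. Nkx2-1 in treated B6 replicate 2 was 0.36 above its group mean, and Foxp2 in replicate 3 was 0.41 below.

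**Figure D4:**
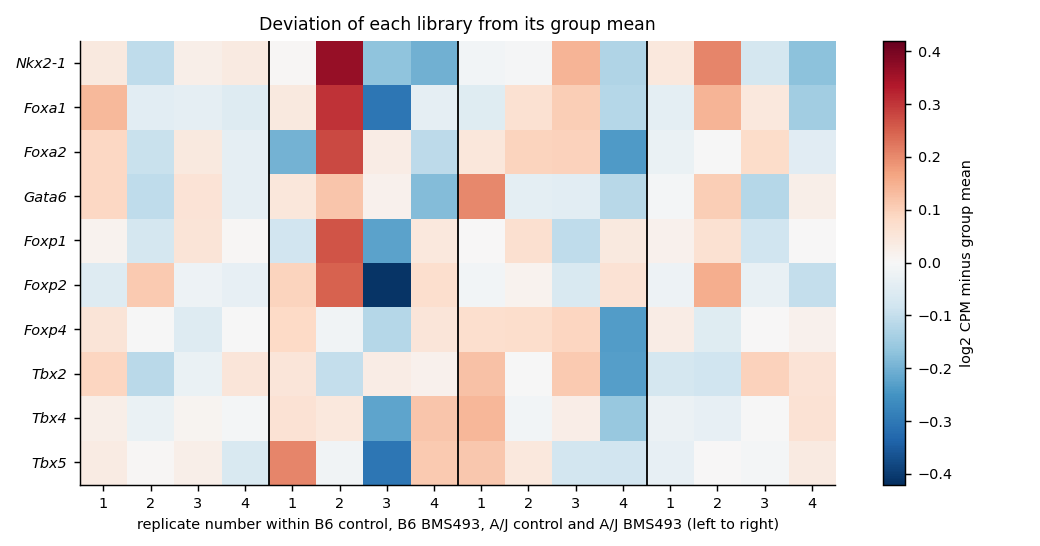
Log2 CPM of each factor (rows) minus the mean of its group, for each library (columns, 4 per group). B6 BMS493 replicate 2 is high for Nkx2-1, Foxa1, Foxa2, Foxp1 and Foxp2, replicate 3 is low for Foxa1, Foxp1, Foxp2, Tbx4 and Tbx5, and A/J control replicate 4 is low for Foxa2, Foxp4 and Tbx2.

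No pair of factors passed a test of covariation within groups (45 pairs, 16 libraries, group means removed, exact permutation within groups, Benjamini-Hochberg). Nkx2-1 and Foxa1, which share an epithelial role and chromosome 12, had the highest r, at 0.83 (rho 0.72, exact p = 0.00314 and 0.00838, adjusted 0.141 and 0.159). Without the libraries farthest from the median, replicate 2 of both BMS493 groups, r was 0.67. Tbx4 and Tbx5 had r of 0.82 (rho 0.68, exact p = 0.0117 and 0.0271, adjusted 0.176 and 0.159), and 0.62 without the farthest pair. Foxp4 and Tbx4 had r of 0.78 (rho 0.63, exact p = 0.0117 and 0.0247, adjusted 0.176 and 0.159), which became 0.48. Foxp1 and Foxp2 had r of 0.74 (rho 0.55, exact p = 0.0746 and 0.0448, adjusted 0.305 and 0.213), but 0.13 without B6 BMS493 replicates 2 and 3, so that relation rests on those libraries. Without replicate 3 alone 3 pairs passed by r and 4 by rho, with 2 passing by both. Those by r were Nkx2-1 with Foxa1 (r 0.85), Tbx2 with Tbx4 (r 0.82) and Foxp2 with Tbx2 (r -0.72), each at an adjusted exact p of 0.0317.

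By the same centred values, genes among the 5 most like Nkx2-1 over the 16 libraries were Prss8 (r 0.94), Klf5 (0.92), Slc39a8 (0.92) and Ucp2 (0.90), of 11531 genes with a mean of at least 5 CPM. Those most like Tbx4 were Trim62 (r 0.95), Tex261 (0.93), Arnt2 (0.91), Kctd17 (0.91) and Slc10a3 (0.90). Without the farthest pair of libraries r ran from 0.76 to 0.86 for the 4 genes named for Nkx2-1 and from 0.68 to 0.88 for the 5 named for Tbx4. The libraries share depth, scaling and tissue makeup, and these values are a description.

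Some relatives of the factors were called with BMS493. Tbx3, a T-box repressor close to Tbx2, fell with BMS493 in both strains. It had 140, 133, 136 and 133 CPM in B6 controls and 113, 98.8, 108 and 107 CPM with BMS493, with no overlap. The fitted difference was -0.34 on the log2 scale (SE 0.062, adjusted p = 0.00781 by edgeR). In A/J it had 140, 126, 122 and 118 CPM in controls and 101, 106, 93.4 and 97.4 CPM with BMS493, again with no overlap, at -0.35 (SE 0.062, adjusted p = 0.00349). Tbx2 had positive estimates in both strains, and the difference between Tbx2 and Tbx3 was not tested. Within library numbers 1 to 8 and 9 to 16, with 2 libraries per group, the Tbx3 estimates were -0.37 and -0.32 in B6 and -0.37 and -0.33 in A/J, with adjusted p of 0.127 to 0.763.

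Gata5, a relative of Gata6, fell over both strains by -0.46 (SE 0.072, adjusted p = 7.25e-04 by edgeR). That call was lost within library numbers 1 to 8 and within 9 to 16, with adjusted p up to 0.114. Gata5 was called in A/J, at -0.49 (adjusted p = 0.0215), and not in B6. The A/J call was lost without any 1 of the 4 A/J controls or A/J BMS493 replicates 1, 2 and 3, with adjusted p up to 0.114. It averaged 76.4 ± 2.37 CPM in B6 controls and 56.7 ± 12.04 CPM with BMS493, and 91.6 ± 2.58 and 65.0 ± 6.67 CPM in A/J (SD, n = 4 each). Of the 13 tested relatives, from a list of 26 Fox, Gata, T-box and Nkx2 genes of which 25 were matched, 0 were called higher with BMS493 in B6, A/J or both, and 1, 2 and 2 were called lower, beside 0.423%, 0.486% and 1.37% of all genes called. The difference between these relatives and the 10 factors was not tested. The strain comparison in controls called 5 relatives, 3 with higher RNA in A/J and 2 with lower, beside 16.9% of all genes. Gata4, another relative of Gata6, was higher in A/J. It averaged 8.63 ± 0.632 CPM in B6 and 16.2 ± 1.28 CPM in A/J controls, at 0.90 (SE 0.14, adjusted p = 5.72e-05), and differed by 1.28 with BMS493 (adjusted p = 5.57e-07). Gata1, an erythroid relative, was low in both strains, at 1.07 ± 0.318 CPM in B6 and 0.440 ± 0.195 CPM in A/J controls. It was called lower in A/J controls, at -1.29 (adjusted p = 0.0257 by edgeR). That call was lost without B6 control replicate 1 or 2 or A/J control replicate 2 or 3, with adjusted p up to 0.0877. Of 7 erythroid markers 2 were called higher in A/J controls and 0 lower, and their summed CPM was 418 ± 44.3 in B6 and 771 ± 152 in A/J controls (SD, n = 4 each). Gata6 differed between strains by -0.012 in controls.

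**Figure D5:**
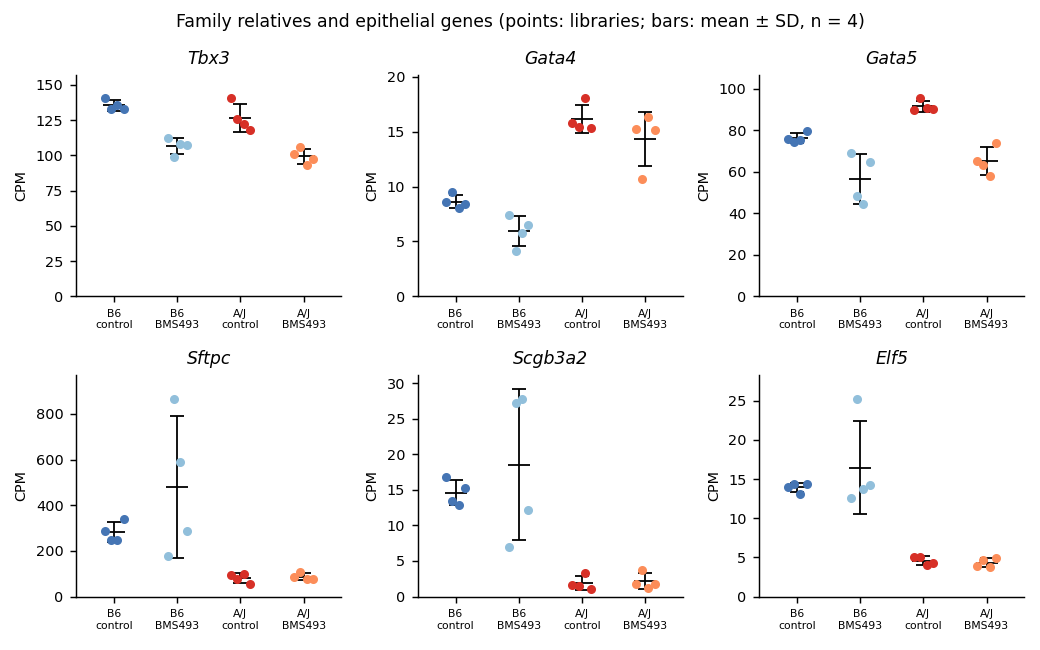
CPM of Tbx3, Gata4, Gata5, Sftpc, Scgb3a2 and Elf5 (vertical axes, starting at 0) in the 4 groups, with points for libraries and bars for the mean ± SD (n = 4). Tbx3 is lower with BMS493 in both strains without overlap, and Sftpc, Scgb3a2 and Elf5 are lower in A/J, with Sftpc spread from 179 to 868 CPM in the B6 BMS493 group.

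Of a list of 17 genes that Nkx2-1, Foxa1, Foxa2 and Gata6 are known to act on, which include surfactant and secretoglobin genes, 14 were tested. Estimates for A/J against B6 were above 0 for 2 of the 14 in controls and 1 with BMS493. In controls 3 were called, all lower in A/J, beside 9.84% of all genes called lower there and 16.9% called in either direction. Whether 3 of 14 exceeds these shares was not tested. With BMS493 8 were called lower, beside 20.0% of all genes, and over both treatments 8 lower and 1 higher, beside 31.7%. The median log2 fold change was -0.57 in controls and -1.08 with BMS493, beside medians of 0.0081 and 0.0032 over all genes. Scgb3a2, a secretory protein of airway cells, averaged 14.6 ± 1.78 CPM in B6 and 1.86 ± 1.01 CPM in A/J controls (SD, n = 4 each), at -2.94 (SE 0.49, adjusted p = 9.44e-04 by edgeR). Sftpc, the surfactant protein of distal epithelium, averaged 281 ± 43.9 CPM in B6 and 81.1 ± 20.7 CPM in A/J controls, at -1.79 (SE 0.41, adjusted p = 0.00857). Within library numbers 1 to 8 and 9 to 16, with 2 libraries per group, Sftpc was at -1.65 and -1.93 (adjusted p = 0.363 and 0.121 by edgeR). With BMS493 no gene of this list was called in B6, A/J or both, beside 0.423%, 0.486% and 1.37% of all genes. Even so, all 14 estimates were above 0 in B6, with a median of 0.39. In that group replicate 2 was highest for both Sftpc, at 868 CPM, and Nkx2-1, but replicate 1 had the lowest Sftpc, at 179 CPM, with the second highest Nkx2-1, at 244 CPM.

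Among 24 other epithelial transcription factors, 0 were called with BMS493 in B6, A/J or both, beside 0.423%, 0.486% and 1.37% of all genes. Between strains in controls 4 were called lower and 1 higher in A/J, beside 16.9% of all genes, and over both treatments 11 lower and 3 higher, beside 31.7%. The share in controls is near that of all genes. Elf5, a factor of distal tips, averaged 13.96 ± 0.562 CPM in B6 and 4.60 ± 0.548 CPM in A/J controls (SD, n = 4 each), at -1.60 (SE 0.18, adjusted p = 2.73e-07 by edgeR). With BMS493 its strain difference was -1.94 (adjusted p = 9.03e-09). Of 25 other mesenchymal factors, BMS493 gave 1 call higher and 3 lower in B6 and 2 of each in A/J, beside 0.423% and 0.486% of all genes called. Of the 13 mesenchymal markers 2 were also called lower with BMS493 in B6 and 2 over both strains, where 1.37% of all genes were called, and 0 in A/J. Their mean log2 CPM differed by -0.14 with BMS493 in B6 (exact permutation p = 0.0571, two-sided, n = 4 each) and by 0.032 in A/J (exact permutation p = 0.743). With their median in place of the mean, the B6 value turned to 0.15 (exact permutation p = 0.229) and the A/J value was 0.27 (exact permutation p = 0.0571). Estimates were above 0 for 7 of the 13 markers in each strain. Their part in the values of the mesenchymal factors was not tested. Hoxa5, a homeobox factor of lung mesenchyme, fell from 139 ± 7.49 to 94.8 ± 5.37 CPM in A/J, at -0.55 (SE 0.068, adjusted p = 4.15e-05). In B6 Hoxa5 averaged 129.8 ± 7.89 CPM in controls and 100.1 ± 9.48 CPM with BMS493. Prrx1, a homeobox factor of mesenchyme, rose from 26.1 ± 3.75 to 38.4 ± 4.51 CPM in A/J (SD, n = 4 each), at 0.55 (adjusted p = 0.0312 by edgeR). That call was lost without B6 control replicate 1, A/J control replicate 1, 3 or 4, or A/J BMS493 replicate 2, 3 or 4, with adjusted p up to 0.144. In B6 Foxf1, a forkhead factor of lung mesenchyme, was at -0.40 (adjusted p = 0.0233) and Gli1, a target and effector of hedgehog signaling, at -0.39 (adjusted p = 0.0210). In A/J Foxf1 ran from 186.9 to 215.1 CPM in controls and from 150.5 to 181.4 CPM with BMS493. Gli1 averaged 127.7 ± 4.02 and 125.4 ± 4.62 CPM there. The strain difference of the BMS493 effect was called for 0 of the 25 factors, beside 0.00579% of all genes. The Foxf1 call was lost without B6 control replicate 1, 3 or 4 (adjusted p up to 0.104), and the Gli1 call without B6 control replicate 2, 3 or 4 or B6 BMS493 replicate 2 (up to 0.0985). Without B6 BMS493 replicates 2 and 3 together Foxf1 was at -0.31 (adjusted p = 0.0680 by edgeR) and Gli1 at -0.21 (adjusted p = 0.254). With only the 8 libraries compared both calls were lost (adjusted p = 0.130 and 0.192), as they were within library numbers 1 to 8 and 9 to 16. Over both strains Hoxa5 was at -0.46 (adjusted p = 1.69e-06 by edgeR) and Hic1, a mesenchymal repressor, at -0.51 (adjusted p = 0.00471). Hic1 was at -0.74 within library numbers 1 to 8 (adjusted p = 1.80e-04 by edgeR) and at -0.29 within 9 to 16 (adjusted p = 0.326).

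Of 11 tested genes of signals linked to the T-box factors, among them Fgf10, Wnt2 and Bmp4, 0 were called with BMS493 in B6, A/J or both. Of all genes 0.423%, 0.486% and 1.37% were called there, so 0 is common for so short a list. In A/J controls 1 was called higher and 2 lower than in B6, beside 16.9% of all genes called. Wnt2b, a ligand of the early lung mesenchyme, averaged 29.2 ± 1.69 CPM in B6 and 11.9 ± 1.80 CPM in A/J controls (SD, n = 4 each), at -1.30 (SE 0.22, adjusted p = 5.20e-04 by edgeR). Cdkn1a, a cell cycle inhibitor that Tbx2 is known to repress, was lower in A/J over both treatments at -0.70 (SE 0.17, adjusted p = 0.00214 by edgeR), while Tbx2 itself was at -0.062 there. Of 19 cofactors of the Gata and Foxp families, 0 were called with BMS493 in either strain, beside 0.423% and 0.486% of all genes. Over both strains, where 1.37% of all genes were called, 1 was called, Tle3, at -0.20 (adjusted p = 0.0287 by edgeR). That call was lost without B6 control replicate 1 or 4, B6 BMS493 replicate 2, or replicate 1, 2 or 3 of either A/J group (adjusted p from 0.0543 to 0.0852). Between strains in controls 3 were called higher in A/J, among them Sall4, a zinc finger factor, at 3.38 (adjusted p = 9.36e-06 by edgeR), and Zfpm2, a Gata partner, at 0.43 (adjusted p = 0.00201), and 1 lower, which is near the 16.9% of all genes called. Sall4 was low in both strains, at 0.242 ± 0.227 CPM in B6 and 2.47 ± 0.227 CPM in A/J controls (SD, n = 4 each).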

How the data were processed

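Raw counts per gene were deposited by the authors, 1 file per library, with a column of counts without strand and 1 for each strand. FastQC, cutadapt, STAR and build GRCm39 are named per the submitters' processing notes. Versions, read length and annotation are not given in the sources used here. Symbols came from GENCODE M21 (51884 identifiers, 98.9% of counts), which is on another build, so no coordinates from it are printed. Lines that are not genes held 23.1% to 28.3% of fragments and were left out. The first strand column held 51.0% to 52.0% of stranded counts, so the column without strand was used.

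edgeR 4.0.16 in R 4.3.3 filtered genes (filterByExpr, 17276 left of 57180), scaled libraries (TMM) and fitted 1 coefficient per group to all 16 libraries (robust quasi-likelihood, 12 residual degrees of freedom, two-sided p, Benjamini-Hochberg over all genes tested). CPM used the TMM scaling, and log2 CPM a prior count of 2. Exact permutation tests used SciPy 1.17.1. Alternatives were RLE scaling, DESeq2 1.42.0, other filters and count columns, only the libraries compared, a replicate block, library set, a test against a log2 fold change of 0.2, and leaving out libraries.

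The factors and lists were chosen with earlier results of these data known. All 10 factors are named. From each other list, at most the 2 called genes with the largest log2 fold change in a comparison are named. For likeness, the 5 genes with the highest r are named, except 1 that is not reported here. Leaving out B6 BMS493 replicates 2 and 3 was chosen after seeing the data.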

Additional observations from a re-analysis of the deposited data

Results flagged for a closer look

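In 4 of 40 combinations of factor and group, 1 library lay far from the other 3 by Dixon's ratio (its gap to the nearest library over the whole range, against the critical value for 4 libraries). Chance alone marks about 1 in 20 such groups. Nkx2-1 in B6 control replicate 2 was lowest at 198 CPM, against 217 to 219 CPM in the others (ratio 0.884). Foxa1 in B6 control replicate 1 was highest at 87.1 CPM, against 76.3 to 77.1 CPM (ratio 0.924). A/J control replicate 4 was lowest for Foxa2, at 44.3 against 54.0 to 55.8 CPM (ratio 0.842), and for Foxp4, at 194 against 240 to 243 CPM (ratio 0.930).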

How the results depend on the processing

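No called estimate of a factor changed sign under any alternative run. Of 2000 estimates under alternatives, 102 that were not called changed sign, the largest of them 0.21 on all libraries. Calls were gained in 24 cases and lost in 29. Without the filter on low counts 1 factor was called for BMS493 over both strains (Nkx2-1), 1 for strain in controls and 2 for strain with BMS493. For strain with BMS493, where 1 was called, DESeq2 and the library set as a term gave 2, and the test against 0.2, only the 8 libraries compared, library numbers 1 to 8, numbers 9 to 16 and leaving out B6 BMS493 replicates 2 and 3 gave 0. For strain in controls, where 0 were called, the library set gave 1, and only the 8 libraries compared and leaving out those replicates gave 2. For strain over both treatments, where 3 were called, the fit without the filter gave 4 (Foxp2 added), library numbers 1 to 8 gave 2, the test against 0.2 gave 0, and library numbers 9 to 16 and leaving out those replicates gave 1. The calls of Scgb3a2, Wnt2b, Zfpm2 and Gata4 for strain in controls were also lost within numbers 1 to 8. Their estimates kept their sign under the alternatives that did not leave out 1 library. They ran from -3.28 to -2.64, -1.52 to -1.10, 0.35 to 0.53 and 0.78 to 1.03, in that order. The Cdkn1a call for strain over both treatments was lost within numbers 9 to 16 (adjusted p = 0.118 by edgeR). The covariation of pairs went from 0 to 3 without replicate 3. For levels per length, the ratio of highest to lowest was 10.01 with the longest transcript. The causes were not tested.

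Over the 16 fits that each left out 1 library, the number of factors called ran from 0 to 1 for BMS493 in B6, 0 to 0 in A/J, 0 to 1 over both strains and 0 to 0 for the interaction. It ran from 0 to 1 for strain in controls, 0 to 2 with BMS493 and 2 to 4 over both treatments.

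With the replicate number as a block, 1 factor was called for strain in controls and 2 with BMS493, where Nkx2-1 passed at adjusted p = 0.0414 and 0.0306 by edgeR. Of all genes, 2979 and 3474 were called in those comparisons with the block, beside 2916 and 3447 without it. The block changed no other count of factors called. The numbers were not taken to pair libraries. Of 24 pairs of same-numbered libraries, 3 had a correlation of deviations over 0.1 (range -0.147 to 0.148), and 7 of 16 libraries correlated best with their own number. How many would do so without any pairing was not tested.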
